A study of Mus musculus with 18 samples.

Results

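TNF receptors, TRAF adaptors and the noncanonical NF-κB pathway were followed through 9 of 29307 genes in the deposited table. They were chosen by name and not by a cut-off on their values, but with earlier results of these data known. The 9 genes were the ligand gene Tnf, the receptor genes Tnfrsf1a, Tnfrsf1b and Tnfrsf12a, the adaptor genes Traf1, Traf2 and Traf3, the ubiquitin ligase gene Birc3 and the kinase gene Map3k14, and all 9 passed the filter on low values. mRNA was sequenced from whole mouse kidney in 6 groups of 3 libraries, from control and IKKβΔTub mice at baseline and 2 and 14 days (d2 and d14) after ischemia reperfusion (I/R) injury. Control mice carried the floxed allele IKKβ fl/fl alone. IKKβΔTub mice carried IKKβ fl/fl and Pax8-rt-TA-LC1Cre, in which the Pax8 promoter drives a doxycycline-dependent Cre along the tubule, so that cells outside the Pax8 lineage keep IKKβ. Mice of both strains drank doxycycline from 6 weeks of age for 2 weeks, followed by 1 week of wash out, and I/R injury was a clamp of the left renal pedicle for 30 minutes. By the labels 2 mice were pooled for each library, but a deposited key names a single mouse for some of them, so p-values below measure only the spread between these libraries.

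TNF is a cytokine of macrophages, T cells and injured epithelium. Its receptor TNFR1 recruits TRADD, TRAF2 and the ligases cIAP1 and cIAP2, and through IKKβ starts the canonical NF-κB response, while TNFR2 binds TRAF2 directly and is best known from leukocytes and endothelium. In the noncanonical branch, TRAF3 keeps the kinase NIK (the product of Map3k14) low by bringing it to TRAF2 and the cIAPs for degradation, and receptors such as Fn14 release NIK, which acts through IKKα on p100 to form p52 and RelB dimers. Several of these genes (Tnf, Traf1, Birc3 and Nfkb2) are themselves known NF-κB targets.

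Libraries held 12306138 to 66317182 reads, and the baseline libraries, which the key lists under a later sequencing date and another animal series, held 26285452 or more. Time after injury and these batch differences cannot be told apart in comparisons with baseline. Values are mRNA levels as deposited, read counts of a gene relative to the 90th percentile within the library, and differences are limma log2 fold changes on log2(level + 0.005) with Benjamini-Hochberg adjustment over 16342 genes. Y-linked expression was present in 0 of 3 control and 2 of 3 IKKβΔTub libraries at baseline, in 1 and 3 at d2, and in 2 and 0 at d14. The targeted gene Ikbkb had levels of 0.736 to 0.861 in control and 0.376 to 0.551 in IKKβΔTub at baseline, and of 1.11 to 1.21 against 0.669 to 0.844 at d14. At d2 its level was 0.829, 0.855 and 1.29 under the label control and 0.846 to 0.986 under the label IKKβΔTub. Vmn1r32 had 0 reads in all control libraries at baseline and d14 and 57 to 356 in the IKKβΔTub libraries of these times. At d2 it had 21, 31 and 3 reads in the libraries labelled control and 17, 32 and 18 in those labelled IKKβΔTub. The genotype of the first and second libraries labelled control at d2 is therefore in doubt, and results of the 9 genes that rest on them are also given without them. The third was not at 0 reads of Vmn1r32, and IKKβΔTub libraries at d2 had fewer reads of it than those of other times. Library sizes differed too, so Ikbkb and Vmn1r32 do not settle the genotype of the other d2 libraries, whose results rest on the labels. The defining markers of proximal tubule were present throughout, with a summed level of 50.5 or more in every library.

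Short stretches at the gene starts are shown for the adaptors Traf3 and Traf2, because a κB-type motif was found in their promoter windows (250 bases before to 50 after the start, RefSeq on GRCm38.p6), and both adaptors recur below. The κB consensus decamer, searched on both strands, lay in the window of 1 of the 9 genes, Traf3, and in 9.55% of 27025 genes with a window. The narrower motif GGGNNTTTCC, added after the windows had been seen and overlapping the first, lay in Traf3 and Traf2 and in 1.89% of genes. Capitals mark the motif, at positions -10 to -1 before the start of Traf3 (chr12:111166350-111166379, + strand) and 32 to 41 after the start of Traf2 (chr2:25546891-25546920, - strand).
Traf3: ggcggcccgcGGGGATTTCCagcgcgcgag
Traf2: cgcggcagcggGGGTGTTTCCcggcgagcg
A match is a string of letters and not evidence of binding. For the other 7 genes these letters were not in this window.

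Per kb of exon, Tnfrsf1a and Tnfrsf12a were the most abundant of the 9 transcripts and Traf1 and Tnf the least in every control group. At baseline the control level per kb was 0.417 ± 0.010 (SD, n = 3) for Tnfrsf1a, 0.135 ± 0.045 for Tnfrsf12a and 0.052 ± 0.0064 for Traf2. Below these by their means, Traf3 (0.039 ± 0.015), Tnfrsf1b (0.034 ± 0.0058) and Birc3 (0.032 ± 0.0035) did not differ beyond their spread, and the range of Traf3 overlapped that of Traf2. Map3k14 followed at 0.019 ± 0.0061, Traf1 at 0.0039 ± 0.00068 and Tnf at 0.0016 ± 0.0019, the ranges of the last pair overlapping. At d14 the order in control had changed, with Tnfrsf1b (0.265 ± 0.018 per kb) and Birc3 (0.222 ± 0.028) directly below Tnfrsf1a (0.843 ± 0.065) and Tnfrsf12a (0.718 ± 0.14), which did not differ beyond their spread. Map3k14 (0.078 ± 0.0048 per kb) had moved above Traf3 (0.039 ± 0.0087). Traf2 (0.087 ± 0.0067) was also above Traf3, and its range overlapped that of Map3k14.

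**Figure D1:**
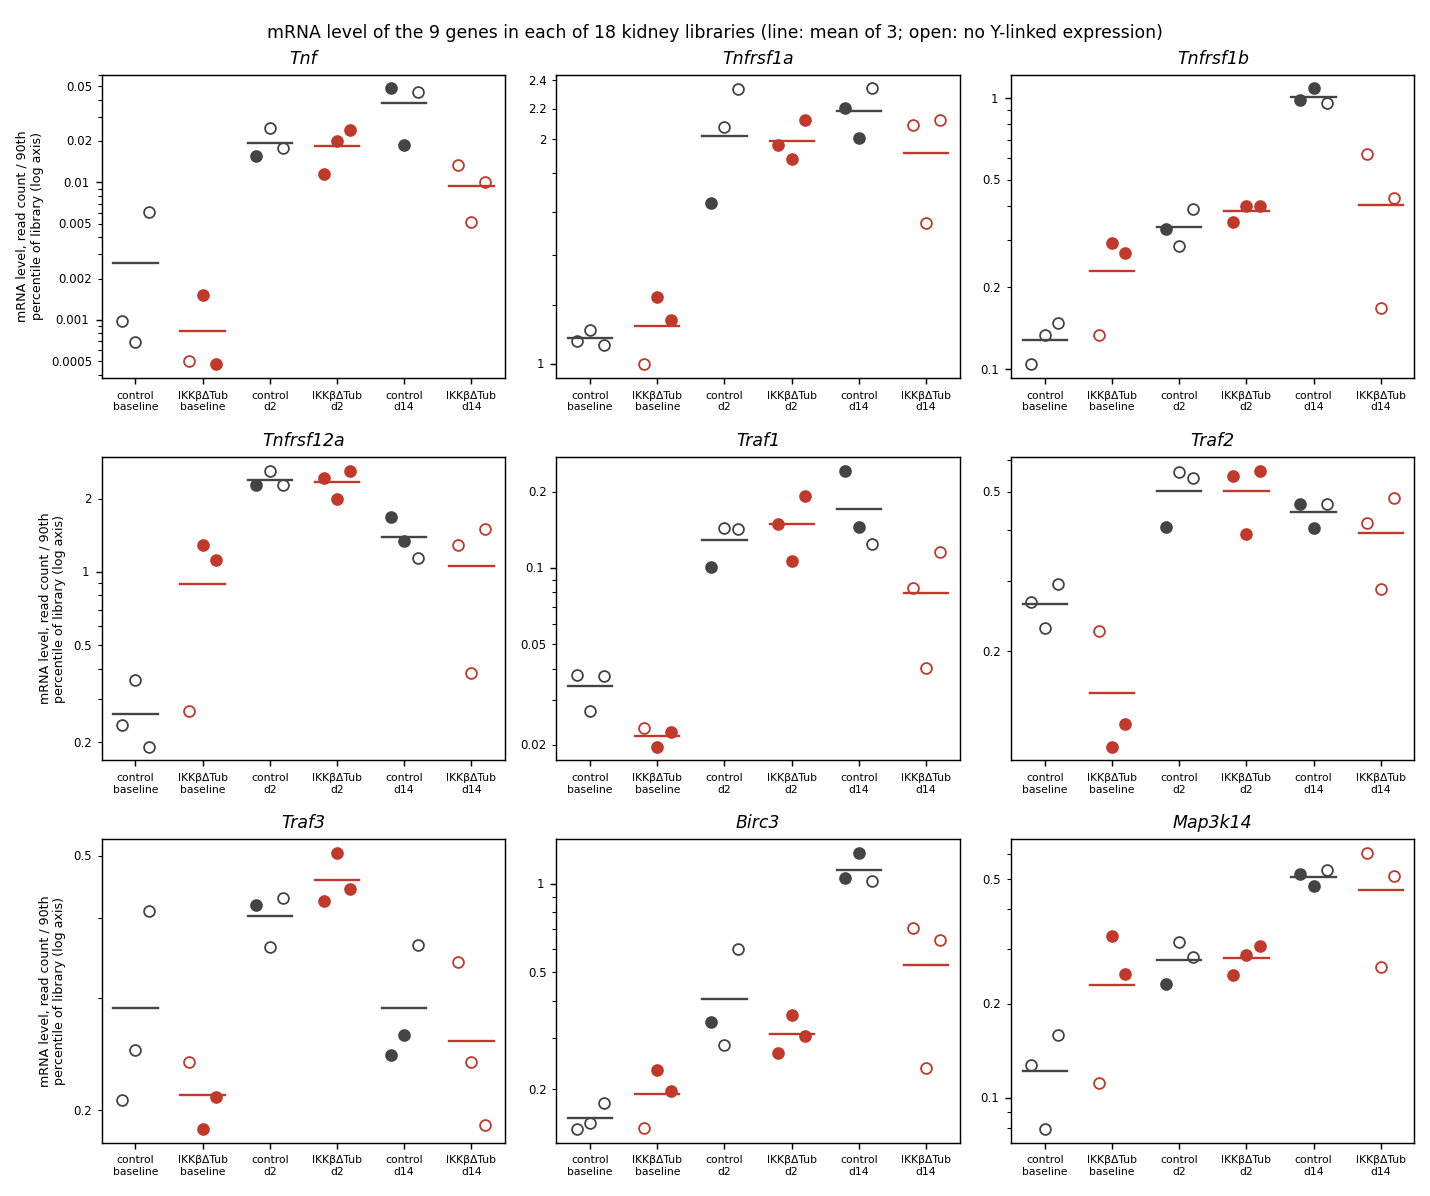
mRNA level (read count over the 90th percentile of the library, log axis) of each of the 9 genes in 18 kidney libraries, with control in grey, IKKβΔTub in red, lines for group means, and open points for libraries without Y-linked expression. Control libraries at d14 lie at 0.960 to 1.09 for Tnfrsf1b and 1.02 to 1.28 for Birc3, above all other libraries, and the lowest IKKβΔTub library at d14 is replicate 2 in 8 of the 9 panels.

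After I/R injury most of the 9 transcripts rose in control kidneys. At d2 against baseline 8 of the 9 were higher and 0 lower by limma, where 25.3% of all genes were called higher and 10.9% lower. The median log2 fold change was 1.25 over the 9 genes and 0.16 over all genes. At d14 against baseline again 8 of 9 were higher and 0 lower, against 32.5% and 16.9% of all genes, with medians of 2.12 and 0.23. Traf3 was the gene not called at either time. Rescaling the libraries by median ratios left both counts at 8, while it lowered the share of all calls that were higher from 69.8% to 54.1% at d2 and from 65.8% to 51.8% at d14. On the deposited scale, 8 of the 9 were higher than baseline without overlap at each time, as were 37.3% of all genes at d2 and 38.2% at d14. In a bulk kidney sample, more cells of a type and more RNA per cell cannot be told apart. Marker sums of other cell types moved with time as well, from 1.77 to 2.40 at baseline to 8.09 to 11.5 at d2 and 22.5 to 31.5 at d14 for macrophages. For injured tubule they ran from 22.1 to 38.2, 207 to 709 and 166 to 243 at these times, and their part in the 9 values was not tested.

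The ligand Tnf (ENSMUSG00000024401, GRCm38 chromosome 17 from 35199381 to 35202007, minus strand) was close to the limit of detection at baseline. It had 4, 2 and 21 reads in control and 1, 7 and 2 reads in IKKβΔTub. Control replicate 2 and IKKβΔTub replicates 1 and 3 were thus under a floor of 3 reads. At d2 it had 21, 33 and 30 reads in control and 11, 39 and 27 in IKKβΔTub, and at d14 52, 35 and 75 in control and 31, 7 and 15 in IKKβΔTub. Pooled over a group and scaled to library size, this was 7.45-fold higher in control at d2 than at baseline (95% exact binomial interval 4.78 to 12.0) and 13.6-fold higher at d14 (9.03 to 21.3), intervals that cover counting error only. Of the 27 control baseline reads 21 came from replicate 3, and without that library, a choice made after the reads were seen, the ratios were 22.4 (9.89 to 62.9) and 41.1 (18.5 to 114). These ratios rest on 6 baseline reads, with replicate 2 under the floor. In IKKβΔTub the pooled ratio to baseline was 20.5 (10.6 to 44.5) at d2 and 11.0 (5.53 to 24.2) at d14. In control the limma log2 fold change was 1.74 at d2 (SE 0.34, adjusted p = 0.000995) and 2.47 at d14 (SE 0.34, adjusted p = 4.26e-05), values that the pseudocount compresses. Their range over the alternatives was 0.40 to 2.80 at d2 and 0.72 to 3.66 at d14, with the call kept in each that could be fitted.

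Among the receptors, Tnfrsf1a, which encodes TNFR1 (ENSMUSG00000030341, chromosome 6 from 125349362 to 125362484, plus strand) changed least. Its level was 1.07, 1.11 and 1.06 in control at baseline, 1.65, 2.08 and 2.34 at d2 and 2.20, 2.01 and 2.34 at d14. All libraries after injury lay above all baseline libraries, and the log2 fold change was 0.88 at d2 and 1.01 at d14 (SE 0.16, adjusted p = 0.000598 and 0.00014).
Tnfrsf1b, which encodes TNFR2 (ENSMUSG00000028599, chromosome 4 from 145213463 to 145246870, minus strand), rose in steps. Its level was 0.104, 0.133 and 0.147 in control at baseline, 0.329, 0.285 and 0.391 at d2 and 0.983, 1.09 and 0.960 at d14. No library of one time overlapped another time. The log2 fold change against baseline was 1.35 at d2 and 2.94 at d14 (SE 0.36, adjusted p = 0.0092 and 2.08e-05).
Tnfrsf12a, which encodes Fn14, the receptor of TWEAK (ENSMUSG00000023905, chromosome 17 from 23675445 to 23677468, minus strand), had its highest levels at d2. It was at 0.234, 0.358 and 0.192 in control at baseline, 2.28, 2.59 and 2.28 at d2 and 1.68, 1.34 and 1.13 at d14. The d2 libraries stood above all others, with a log2 fold change against baseline of 3.21 at d2 and 2.41 at d14 (SE 0.52, adjusted p = 0.000252 and 0.00145).

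Of the adaptors, Traf1 (ENSMUSG00000026875, chromosome 2 from 34941750 to 34961772, minus strand), an adaptor that lacks the RING domain of other TRAF proteins, had the largest change. Its level was 0.038, 0.027 and 0.037 in control at baseline, 0.101, 0.144 and 0.143 at d2 and 0.243, 0.145 and 0.125 at d14. Injured libraries lay above all baseline libraries, and the d2 and d14 ranges overlapped. The log2 fold change was 1.77 at d2 and 2.12 at d14 (SE 0.32, adjusted p = 0.000625 and 9.82e-05).
Traf2 (ENSMUSG00000026942, chromosome 2 from 25517982 to 25546940, minus strand), the adaptor shared by TNFR1 and TNFR2, was at 0.266, 0.229 and 0.294 in control at baseline, 0.407, 0.560 and 0.540 at d2 and 0.465, 0.406 and 0.466 at d14. Injured libraries were again above all baseline libraries, by a log2 change of 0.91 and 0.76 (SE 0.25, adjusted p = 0.0091 and 0.0187).
Traf3 (ENSMUSG00000021277, chromosome 12 from 111166370 to 111267153, plus strand), the adaptor that holds NIK low, was at 0.207, 0.248 and 0.410 in control at baseline, 0.419, 0.361 and 0.429 at d2 and 0.244, 0.262 and 0.363 at d14. Its d14 libraries lay within the baseline range. The log2 fold change was 0.53 at d2 (SE 0.25, adjusted p = 0.105) and 0.04 at d14 (95% interval -0.48 to 0.57), and without control baseline replicate 3 the d2 value was 0.81 (adjusted p = 0.0143).

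Birc3, which encodes the ligase cIAP2 (ENSMUSG00000032000, chromosome 9 from 7848699 to 7873186, minus strand), rose in control from 0.147, 0.154 and 0.180 at baseline to 0.338, 0.282 and 0.602 at d2 and 1.04, 1.28 and 1.02 at d14. As for Tnfrsf1b, no library of one time overlapped another. The log2 fold change was 1.25 at d2 and 2.76 at d14 (SE 0.35, adjusted p = 0.0112 and 2.29e-05), and without control d2 replicate 3 the d2 call was lost (0.93, adjusted p = 0.0664). Birc3 and its paralog Birc2 are similar in sequence, and how reads shared between them were counted is not given in the sources used here.
Map3k14 (ENSMUSG00000020941, chromosome 11 from 103219762 to 103267472, minus strand) was at 0.127, 0.080 and 0.159 in control at baseline, 0.231, 0.314 and 0.281 at d2 and 0.518, 0.474 and 0.536 at d14. Each later group lay above the one before it, with a log2 fold change against baseline of 1.18 and 2.07 (SE 0.35, adjusted p = 0.0166 and 0.00025). The d2 call of Map3k14 was lost without control baseline replicate 2 (0.92, adjusted p = 0.0868) or control d2 replicate 2 (1.09, adjusted p = 0.0624).
The d14 call of Traf2 in control was lost without control baseline replicate 2 (0.66, adjusted p = 0.0721) or control d14 replicate 3 (0.72, adjusted p = 0.0518). Without both libraries of doubtful genotype, which leaves 1 control library at d2 whose spread is assumed to be that of the other groups, 5 of the 9 genes were higher at d2 than at baseline. The calls of Tnfrsf1b (1.58, adjusted p = 0.0595), Traf2 (1.03, adjusted p = 0.0622) and Map3k14 (1.22, adjusted p = 0.127) were lost at log2 changes above those with all libraries.

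Between d2 and d14 in control kidneys, calls among the 9 genes were few and not far from the shares of all genes. Tnfrsf1b rose further by a log2 change of 1.59 (SE 0.36) and Birc3 by 1.51 (SE 0.35), both with an adjusted p of 0.0037, so that 2 of 9 were higher and 0 lower, where 16.6% and 17.7% of all genes were called. Without overlap 3 of 9 were higher and 1 lower, against 26.4% and 24.8% of all genes. Map3k14 had a value of 0.89 with groups that did not overlap (adjusted p = 0.0645), and was called in DESeq2 (0.87, adjusted p = 0.0409), with a pseudocount of 0.05 (0.79, adjusted p = 0.0487) and with only these libraries in the fit (adjusted p = 0.0062). Tnf had 0.73 (adjusted p = 0.105), and 1.11 without control d14 replicate 2 (adjusted p = 0.0207). Tnfrsf12a and Traf3 had values below 0, at -0.79 and -0.49 (adjusted p = 0.254 and 0.138; Tnfrsf12a 0.0139 with only these libraries in the fit), while Tnfrsf1a, Traf1 and Traf2 lay between -0.16 and 0.35. Without both doubtful d2 libraries 0 of 9 genes were called. Tnfrsf1b then had 1.36 (adjusted p = 0.123) and Birc3 0.88 (adjusted p = 0.244).

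In IKKβΔTub kidneys 6 of the 9 genes were higher and 0 lower at d2 than at baseline, where 35.2% of all genes were called higher and 14.5% lower. Rescaling by median ratios kept 6 of 9 and lowered the share of all calls that were higher from 70.9% to 49.7% (and from 72.4% to 52.2% at d14). Traf1 rose from 0.023, 0.020 and 0.022 to 0.150, 0.106 and 0.192, a log2 change of 2.49 (SE 0.32, adjusted p = 2.13e-05). Traf3, not called in control, was at 0.238, 0.187 and 0.210 at baseline and 0.425, 0.506 and 0.444 at d2 (log2 fold change 1.10, SE 0.25, adjusted p = 0.0019), with no overlap. Without overlap 8 of the 9 were higher, as were 39.6% of all genes. Traf2 rose by 1.68 (SE 0.25), Tnfrsf1a by 0.82 (SE 0.16) and Tnf by 1.97 (SE 0.34), a value that the pseudocount compresses and that ran from 0.43 to 4.04 over the alternatives. Tnfrsf12a rose by 1.66 (SE 0.52, adjusted p = 0.0153), a call lost without IKKβΔTub baseline replicate 1 (0.95, adjusted p = 0.082), in edgeR (adjusted p = 0.0829) and in DESeq2 (adjusted p = 0.0597). Tnfrsf1b, Birc3 and Map3k14 had 0.80, 0.68 and 0.40 (adjusted p = 0.0809, 0.113 and 0.366). Their levels at d2 were 0.349, 0.401 and 0.401 for Tnfrsf1b and 0.266, 0.359 and 0.304 for Birc3, above all baseline libraries of the strain (up to 0.291 and 0.232), and Birc3 was called when only these libraries entered the fit (adjusted p = 0.0366).
At d14 against baseline 6 of 9 genes were higher and 0 lower in IKKβΔTub, against 28.6% and 10.9% of all genes. These were Tnf (1.27, with a range over the alternatives of 0.22 to 3.14), Tnfrsf1a (0.76), Traf1 (1.56), Traf2 (1.32), Birc3 (1.31) and Map3k14 (1.03). The call of Map3k14 was lost when the libraries were rescaled by median ratios (0.79, adjusted p = 0.0901) or by TMM, without the filter, with only these libraries in the fit, in edgeR and DESeq2, and without IKKβΔTub baseline replicate 1, d14 replicate 1 or d14 replicate 3 (0.59 to 0.92). Tnf lost its call with a pseudocount of 0.05 (0.22, adjusted p = 0.161) and with Y-linked expression as a covariate (1.09, adjusted p = 0.0525), and Birc3 with only these libraries in the fit (adjusted p = 0.0711). Tnfrsf1b (0.69, adjusted p = 0.145) was called without d14 replicate 2 (1.22, adjusted p = 0.003). Tnfrsf12a was at 1.28, 0.384 and 1.49 at d14 against 0.268, 1.29 and 1.12 at baseline (log2 fold change 0.30, SE 0.52). The baseline range of Tnfrsf12a thus lay inside the d14 range but for 1 library. Whether the change of each gene since baseline differed between strains was not tested.
From d2 to d14 in IKKβΔTub, 0 of the 9 genes were called higher and 2 lower, against 13.8% and 19.2% of all genes. DESeq2 called 1 higher, Birc3 (0.81, adjusted p = 0.04996). Traf3 fell from 0.425, 0.506 and 0.444 to 0.342, 0.238 and 0.190, without overlap (log2 fold change -0.86, SE 0.25, adjusted p = 0.0149), but not past the threshold without IKKβΔTub d14 replicate 3 (-0.67, adjusted p = 0.0594). Of all genes 23.1% were lower without overlap. Traf1 fell by 0.94 on the log2 scale (SE 0.32, adjusted p = 0.0355). That call was lost without IKKβΔTub d2 replicate 1 or 3 or d14 replicate 1 or 2 (-1.02 to -0.54), and in d14 replicate 2 Traf1 was lowest, at 0.040. With only these libraries in the fit neither Traf1 (adjusted p = 0.128) nor Traf3 (adjusted p = 0.0506) was called, and Traf1 was not called with Y-linked expression as a covariate (adjusted p = 0.0931) or without the filter (adjusted p = 0.0541). Tnfrsf12a had -1.36 (adjusted p = 0.056) and was called without d14 replicate 3 (-1.72, adjusted p = 0.0303) or with a trended prior (adjusted p = 0.0459), and Traf2, at -0.35, with the Y-linked covariate (-0.75, adjusted p = 0.0452). Without d14 replicate 2, Birc3 (1.12, adjusted p = 0.0071) and Map3k14 (0.99, adjusted p = 0.0461) were called higher.

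**Figure D2:**
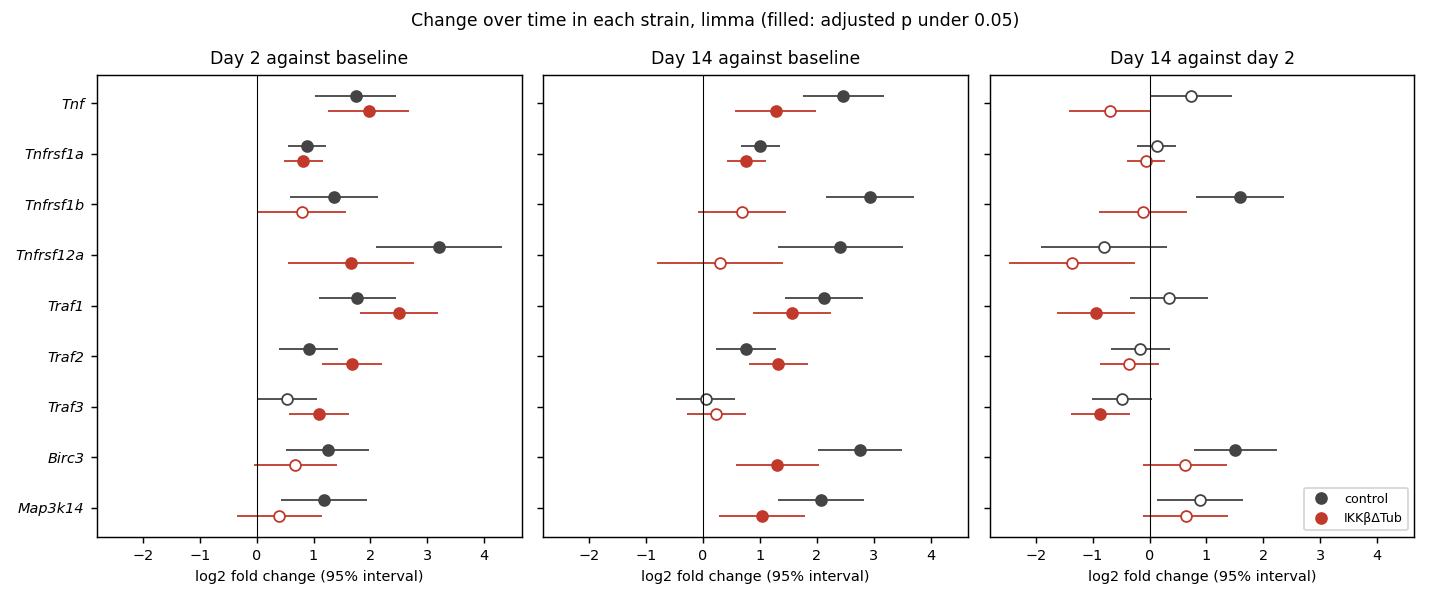
Log2 fold change of the 9 genes with its 95% interval (x axis) for 3 comparisons of times, in control (grey) and IKKβΔTub (red), 3 libraries a group, with filled points for an adjusted p under 0.05 in limma. In control Tnfrsf1b and Birc3 are higher at d14 than at d2 (1.59 and 1.51), whereas Traf1 (-0.94) and Traf3 (-0.86) are the filled points below 0, both in IKKβΔTub.

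The strains were compared at each time to ask whether tubular IKKβ deletion alters these genes. At d14 all 9 values were below 0 in IKKβΔTub against control, with a median log2 fold change of -0.60, while 42.4% of all genes were above 0 and their median was -0.05. In limma 0 of the 9 were called higher and 0 lower, where 0.0673% and 0.416% of all genes were called. An unadjusted p under 0.05 was reached by 4 of the 9 (and by 2288 of 16342 genes), and these 4, Tnf, Tnfrsf1b, Traf1 and Birc3, were lower in IKKβΔTub without overlap, as were 9.07% of all genes. DESeq2 on the recovered reads called 2 of the 9 lower, Tnfrsf1b (-1.29, adjusted p = 0.0177) and Traf1 (-1.05, adjusted p = 0.0401), where 1.7% of all genes were lower. edgeR called 0 of them, and the 4 genes had adjusted p of 0.13 to 0.168.
Tnf at d14 had levels of 0.048, 0.019 and 0.046 in control and 0.013, 0.0051 and 0.010 in IKKβΔTub. The pooled reads gave a ratio of 0.289 (95% exact binomial interval 0.208 to 0.397, counting error only), and limma a log2 change of -1.51 (SE 0.34, adjusted p = 0.0584). It was called lower without control d14 replicate 2 (-1.88, adjusted p = 0.0131), without IKKβΔTub d14 replicate 1 (-1.70, adjusted p = 0.0248) or 3 (-1.55, adjusted p = 0.0477), and with a pseudocount of 0.05 (-0.54, adjusted p = 0.0468).
Tnfrsf1b was at 0.983, 1.09 and 0.960 in control and 0.620, 0.168 and 0.426 in IKKβΔTub, a log2 change of -1.50 (SE 0.36, adjusted p = 0.0736). The IKKβΔTub libraries were thus all below the lowest control library, and differed more among themselves than the control libraries did. It was called lower with a pseudocount of 0.05 (adjusted p = 0.0499) and without IKKβΔTub d14 replicate 1 (-1.89, adjusted p = 0.0159).
Birc3 had a log2 change of -1.21 (SE 0.35, adjusted p = 0.109), from 1.04, 1.28 and 1.02 in control and 0.706, 0.236 and 0.643 in IKKβΔTub, and was called lower without IKKβΔTub d14 replicate 1 (-1.49, adjusted p = 0.0372).
Traf1, a gene the study itself named at this time from these libraries, so that its direction is not independent evidence, was at 0.243, 0.145 and 0.125 in control and 0.083, 0.040 and 0.116 in IKKβΔTub. The log2 fold change was -1.11 (SE 0.32, adjusted p = 0.116), and it was called lower without IKKβΔTub d14 replicate 3 (-1.42, adjusted p = 0.0375).
The other 5 genes overlapped between strains. Tnfrsf12a had -0.60 (95% interval -1.70 to 0.51), Map3k14 -0.23 (-0.98 to 0.53), Traf2 -0.20 (-0.72 to 0.32), Tnfrsf1a -0.20 (-0.54 to 0.14) and Traf3 -0.19 (-0.72 to 0.33). The level of NIK mRNA thus lay at 0.474 to 0.536 in control and at 0.607, 0.263 and 0.511 in IKKβΔTub.

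IKKβΔTub d14 replicate 2 was the lowest library of its group for 8 of the 9 genes. Without it the values at d14 were -1.27 for Tnf (adjusted p = 0.266), -0.97 for Tnfrsf1b (0.278), -0.71 for Traf1 (0.594) and -0.71 for Birc3 (0.513), and Tnfrsf12a, Traf2 and Map3k14 lay just above 0 (0.02, 0.01 and 0.13). Several lists of cell type markers moved with these values. The summed level of 14 macrophage markers was 22.5 to 31.5 in control and 14.5, 2.63 and 12.1 in IKKβΔTub at d14, with all 14 below 0 (median log2 fold change -1.51), 0 called and Itgam alone at 0 reads in some of the 18 libraries. The 9 T cell markers summed to 0.305 to 0.531 in control and 0.077 to 0.249 in IKKβΔTub, with all 9 below 0, none at 0 reads in a library and Cd5 called lower. The 6 injured tubule markers summed to 166 to 243 in control and 113, 31.5 and 154 in IKKβΔTub, and the 12 proximal tubule markers to 50.5 to 134 in control and 56.8, 316 and 82.0 in IKKβΔTub. Replicate 2 was the extreme library in these 4 marker sums of IKKβΔTub as well. Its proximal tubule and injured tubule sums lay within the ranges of the baseline libraries (268 to 443 and 18.7 to 38.2). Its macrophage and T cell sums lay just above theirs (1.40 to 2.40 and 0.030 to 0.067). Whether the tissue of this library was less injured was not tested. The sums are unweighted, so abundant transcripts weigh most. Spp1 had 34685 to 1058145 reads and Kap 3105 to 979866, against 22 to 6788 for Krt20. By gene, all 6 injured tubule markers were below 0 (median -1.35). Of the 12 proximal tubule markers 11 were above 0 (median 0.71), and 0 of either list were called. The 9 neutrophil markers summed to 0.401 to 0.995 in control and 0.055 to 0.263 in IKKβΔTub, and the 6 tested were all below 0 with a median of -1.78 and Cxcr2 called lower. The 8 markers of thick ascending limb and distal tubule summed to 15.1 to 33.4 in control and 24.9 to 99.6 in IKKβΔTub, all 8 above 0 with a median of 1.41 and 0 called. The value of 99.6 was that of replicate 2, against 67.0 to 102 in the baseline libraries. Fibroblast and matrix markers were below 0 for 5 of 7 genes (median -0.76). B cell markers were below 0 for 4 of 4 tested (median -0.57) and adipocyte markers for 5 of 5 tested (median -1.39). Endothelial markers were above 0 for 5 of 6 genes (median 0.34), and none of these lists held a called gene. The part of these cell types in the member values was not tested. Y-linked expression, present in 2 of 3 control and 0 of 3 IKKβΔTub libraries, moved with them too, and with it as a covariate Tnf had -1.69, Tnfrsf1b -1.24, Traf1 -1.15 and Birc3 -1.10 (adjusted p = 0.116 to 0.234).

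**Figure D3:**
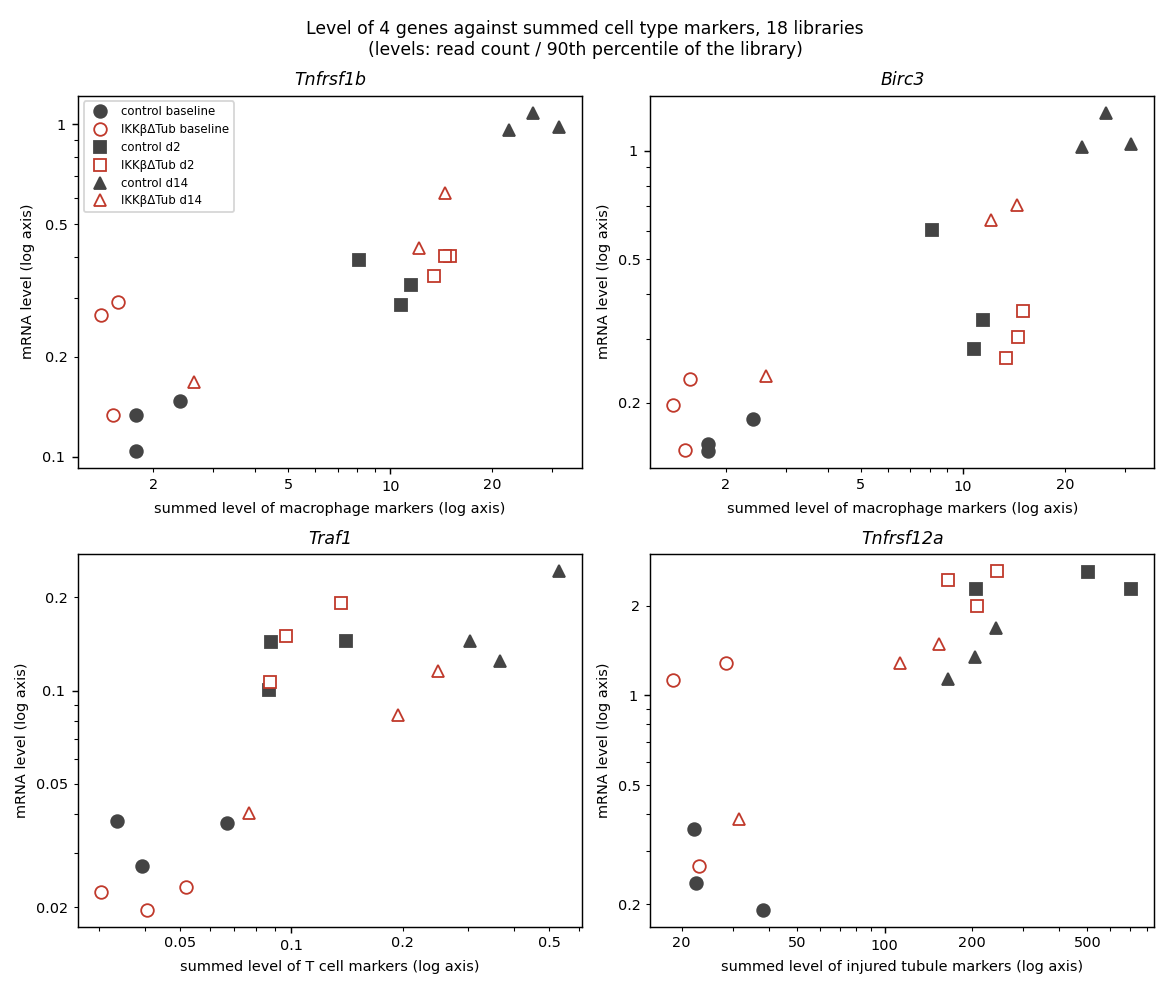
mRNA level (log axis) of Tnfrsf1b, Birc3, Traf1 and Tnfrsf12a against the summed level of macrophage, T cell or injured tubule markers (log axis) in 18 libraries, filled grey for control and open red for IKKβΔTub, with circles for baseline, squares for d2 and triangles for d14. The sums are unweighted. The control d14 libraries hold the highest macrophage sums (22.5 to 31.5) and the highest Tnfrsf1b levels, and IKKβΔTub d14 replicate 2 (2.63) lies beside the baseline libraries.

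At d2 the values between strains ran from -0.33 (Birc3) to 0.20 (Tnfrsf1b) and the groups overlapped for all 9 genes, although 12.6% of all genes did not overlap. In limma 0 of the 9 were called higher and 0 lower, where 0% and 0% of all genes were called, and 0 of the 9 (1065 of all genes) had an unadjusted p under 0.05. edgeR and DESeq2 also called 0 of the 9. The 95% intervals reach from -0.35 to 0.33 for Tnfrsf1a and from -1.14 to 1.08 for Tnfrsf12a. Differences within these intervals were not detectable here, and the doubtful genotype of 2 control libraries bears on each of these values. Without both, the values ran from -0.96 (Birc3) to 0.09 (Traf3), that of Tnfrsf1b was -0.03, and 0 of 9 were called. The strain difference at d14 was tested against that at d2. For all 9 genes it was below 0, lowest for Tnfrsf1b (-1.70, SE 0.51, adjusted p = 0.244) and Tnf (-1.43, SE 0.47, adjusted p = 0.288), and 0 of 9 were called higher and 0 lower, where 0.00612% and 0.0551% of all genes were. An unadjusted p under 0.05 was reached by 3 of the 9 and by 1608 of 16342 genes, and edgeR and DESeq2 called 0 of the 9. Without both doubtful libraries 0 of 9 were called, Tnfrsf1b had -1.47 and Birc3 -0.25, and Tnfrsf1a was at 0.04, above 0. The 2 comparisons behind this test share no library.

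At baseline 0 of the 9 genes were called higher and 0 lower in IKKβΔTub by limma, where 0.0367% and 0.0122% of all genes were called, and 3 of the 9 and 2487 of 16342 genes had an unadjusted p under 0.05. Traf1 (0.023, 0.020 and 0.022 against 0.038, 0.027 and 0.037) and Traf2 (0.225, 0.116 and 0.132 against 0.266, 0.229 and 0.294) were lower without overlap, as were 14.9% of all genes. Their log2 fold changes were -0.54 (SE 0.32, adjusted p = 0.446) and -0.77 (SE 0.25, adjusted p = 0.181).
Tnfrsf12a had the largest value, with 0.268, 1.29 and 1.12 in IKKβΔTub against 0.234, 0.358 and 0.192 in control, a log2 change of 1.51 (SE 0.52, adjusted p = 0.206). Replicates 2 and 3 of IKKβΔTub stood apart and replicate 1 lay within the control range. DESeq2 called Tnfrsf12a higher (1.89, adjusted p = 0.00495), as it did 2.69% of all genes, and edgeR did not (1.88, adjusted p = 0.0856).
Map3k14 (0.112, 0.328 and 0.249 against 0.080 to 0.159 in control) and Tnfrsf1b (0.133, 0.291 and 0.267 against 0.104 to 0.147) showed the same split of the libraries. Without IKKβΔTub baseline replicate 1, Tnfrsf12a (2.23, adjusted p = 0.00683) and Map3k14 (1.25, adjusted p = 0.0264) were called higher and Traf2 lower (-1.05, adjusted p = 0.0125). Replicates 2 and 3 were the baseline libraries with Y-linked expression, and with it as a covariate Tnfrsf12a had 0.99 (adjusted p = 0.669), Map3k14 0.63 (adjusted p = 0.731) and Traf2 -0.45 (adjusted p = 0.635). Neutrophil markers were also higher there, with sums of 0.421 and 0.251 against 0.023 to 0.078 in the other 4 baseline libraries, although Ly6g, Camp and Ngp were at 0 reads in 11, 12 and 6 of the 18 libraries. Macrophage sums of these 2 libraries, 1.57 and 1.40, lay below control (1.77 to 2.40). Of the injured tubule markers, Krt20 had 3.58 (SE 0.73, adjusted p = 0.0752) and Sox9 1.06 (SE 0.41, adjusted p = 0.245) between strains, with unadjusted p of 0.000184 and 0.0189, while Havcr1, Spp1, Clu and Sprr2f lay between -0.35 and 0.45. The part of other cells in these values was not tested. The remaining genes overlapped between strains at baseline, with -0.31 for Tnf (95% interval -1.03 to 0.40), 0.05 for Tnfrsf1a (-0.29 to 0.39), -0.38 for Traf3 (-0.91 to 0.14) and 0.24 for Birc3 (-0.50 to 0.97).

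**Figure D4:**
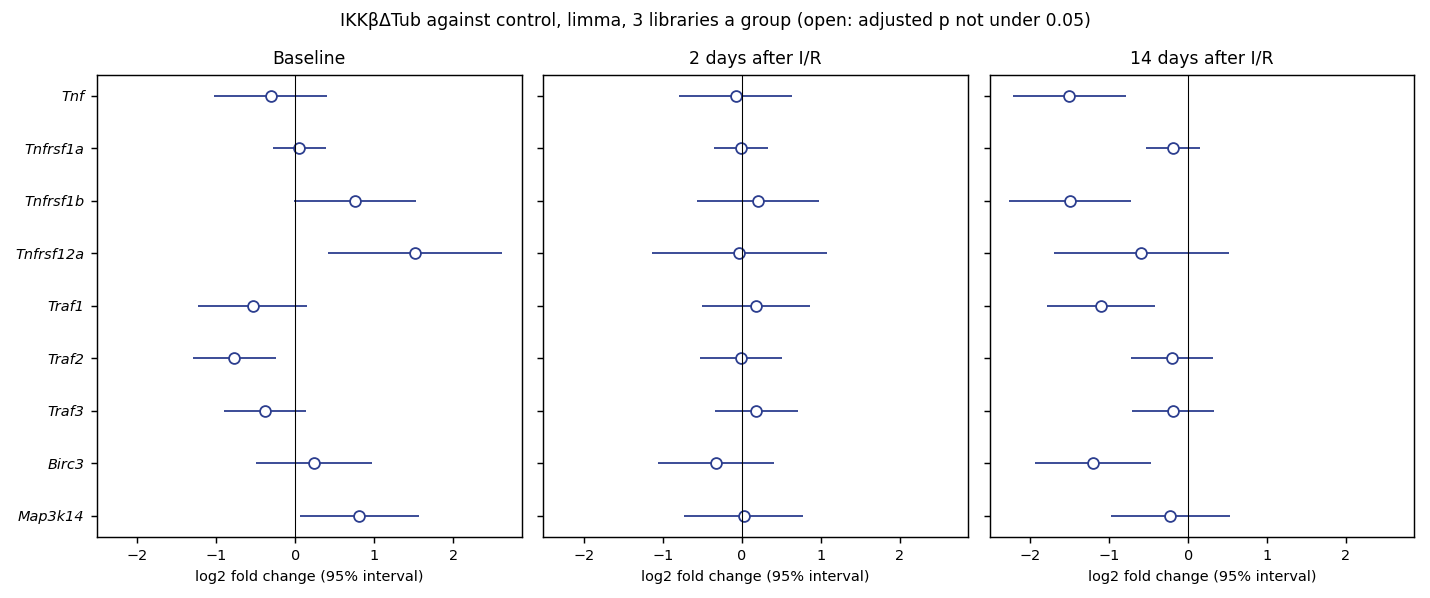
Log2 fold change of IKKβΔTub against control with its 95% interval (x axis) for the 9 genes at baseline, d2 and d14, 3 libraries a group, limma, with open points where the adjusted p was not under 0.05. All points are open, the 9 values at d14 lie between -1.51 and -0.19, and at baseline Tnfrsf12a lies at 1.51.

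The members could also be grouped by how their libraries varied. Within groups, that is after removing each group mean from the 18 libraries, Tnfrsf1b and Birc3 varied together (r = 0.89), as did Tnfrsf1b with Tnfrsf12a (r = 0.80) and Map3k14 (r = 0.78), whereas Traf2 followed Traf1 (r = 0.70) and not Tnfrsf1b (r = -0.01). Traf3 had a within-group r between -0.32 and 0.44 with every other member. These values are descriptions over 18 libraries that share batches and marker sums, and IKKβΔTub d14 replicate 2 and IKKβΔTub baseline replicate 1 take part in all of them.
Over all 18 libraries and all tested genes, the transcripts most like Tnfrsf12a were Krt8 (r = 0.98), Krt20 (r = 0.96) and Myc (r = 0.95), the first pair being keratins of epithelium. Those most like Tnf were Sirpb1a, Traf3ip3 and Adam11 (r = 0.96, 0.95 and 0.95). Those most like Traf1 were Psmb8, an immunoproteasome subunit, Gsdmd, the pore-forming protein of pyroptosis, and Terf1 (r = 0.98 each). Those most like Birc3 were Edn1, which encodes endothelin-1, 4930539E08Rik and B3gnt5 (r = 0.98, 0.97 and 0.97). Group means were not removed for these r, so they include the shift from baseline to injury, which cannot be told apart from batch. For Tnf they also include baseline libraries of 1 to 21 reads.

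The rest of the pathway was read from lists of 97 further genes, of which 89 passed the filter. At d14 against baseline in control, where 32.5% of all genes were higher and 16.9% lower, 10 of 11 tested TNF superfamily ligands rose and 0 fell, led by Ltb, lymphotoxin-β (2.504, SE 0.42), Tnfsf13b, which encodes the B cell factor BAFF (2.17, SE 0.38), and Tnfsf8 (2.04, SE 0.34). Of 23 other receptors 17 rose, among them Tnfrsf9, which encodes 4-1BB (3.82, SE 0.57), Tnfrsf13b (3.07, SE 0.37) and Eda2r (2.72, SE 0.39), and Tnfrsf21 fell (-0.76, SE 0.27). In the receptor complex 6 of 22 rose and 2 fell, counts near or below the shares of all genes. Tnfaip3, which encodes the deubiquitinating brake A20, rose by 2.79 (SE 0.30) and Birc2, the gene of cIAP1, by 1.86 (SE 0.23), while Ube2n, the gene of a ubiquitin-conjugating enzyme, fell by 0.87 on the log2 scale (SE 0.15).
In the noncanonical list 5 of 7 rose and 1 fell at d14 in control. Relb (2.36, SE 0.42) and Nfkb2 (1.78, SE 0.31), the genes of the RelB and p100 subunits, rose most, and Siah2 fell (-0.47, SE 0.15). Of 22 NF-κB response genes 19 rose, with Lcn2 (6.13, SE 0.65), Ccl2 (5.34, SE 0.50) and C3 (5.20, SE 0.60) highest, and Sod2 fell (-1.80, SE 0.22). Of the other 4 TRAF genes, Traf7 rose (0.93, SE 0.16) and Traf4 fell (-0.45, SE 0.15). Adjusted p of the named genes ranged up to 0.028.
In IKKβΔTub at d14 against baseline, 28.6% of all genes were higher and 10.9% lower. Higher were 8 of 11 ligands, 8 of 23 receptors, 2 of 4 other TRAF genes and 6 of 22 complex genes. So were 2 of 7 noncanonical genes and 10 of 22 response genes. Counts of the receptors, the complex and the noncanonical list were near the share of all genes. Lower were 1 receptor, 2 complex genes, 1 noncanonical gene and 1 response gene. Relb rose by 1.27 (SE 0.42) and Nfkb2 by 1.06 (SE 0.31), and Chuk, the gene of IKKα, fell (-0.88, SE 0.27). Over the 6 lists 58 of 89 genes rose and 6 fell in control at d14, and 36 rose and 5 fell in IKKβΔTub.
At d2 against baseline 42 of 89 rose and 3 fell in control, against 25.3% and 10.9% of all genes, with the doubtful libraries included. In IKKβΔTub 43 rose and 10 fell, against 35.2% and 14.5%. Relb (1.99 and 1.69) and Nfkb2 (1.64 and 1.23) rose in both strains, and Chuk fell in IKKβΔTub (-1.49, SE 0.27).
Between strains at d14, 2 of the 89 list genes were called lower in IKKβΔTub and 0 higher, where 0.416% and 0.0673% of all genes were. Both were chemokines among the response genes, Ccl2 (-3.47, SE 0.50, adjusted p = 0.00692) and Ccl5 (-2.30, SE 0.46, adjusted p = 0.0412). Values were below 0 for 75 of the 89 list genes and above 0 for 14, while 42.4% of all genes were above 0. The response genes summed to 61.2 to 77.5 in control and 36.8, 12.0 and 38.6 in IKKβΔTub, lowest in replicate 2. List values were not examined without that library. Relb had -0.78 (adjusted p = 0.436), Nfkb2 -0.32 (adjusted p = 0.73) and Ltb -1.46 (adjusted p = 0.108). At baseline and at d2 0 of the 89 were called between strains. Of all genes, 0.0367% were called higher and 0.0122% lower at baseline, and 0% in either direction at d2.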

How the data were processed

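RNA of whole kidney was sequenced in stranded, poly(A)-selected libraries. Per the submitters' processing notes, reads passed FastQC 0.11 and Trim Galore 0.4, were aligned with STAR 2.5.2b and were counted with featureCounts 1.5.2, and the paper names GRCm38 as its genome. The authors deposited for each gene a signal, counts scaled to the 90th percentile within each library, so that the 18 libraries are on 1 scale without a correction for composition. Whole reads could be recovered from 100% of values (tolerance 0.001 of a read) and were used for edgeR and DESeq2. Positions and exon lengths are those of GENCODE M21 on GRCm38 matched by identifier, since the deposited start matched for 0 of 9 genes.

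limma 3.58.1 was fitted to log2(value + 0.005) with 6 group means for 16342 genes with at least 0.005 in at least 3 libraries, and a gene was called at an adjusted p under 0.05. The fit was run on simulated counts with the same dispersion for all genes and no batch or outlying library. That setting is simpler than these data and does not show how the fit performs on them. Alternatives were edgeR 4.0.16, DESeq2 1.42.0, other pseudocounts (0.001 and 0.05), filters, scalings, covariates and leaving out each library. Genes, lists and tests were chosen with earlier results of these data known. All 9 genes are named in each comparison, up to 3 called genes of a list in each direction are named by size of change in the comparisons described, and for Tnf, Tnfrsf12a, Traf1 and Birc3 the 3 genes with the highest Pearson r are named. Relb, Nfkb2 and Ltb between strains were named after their values were seen. Promoter windows are those of RefSeq. Values of 1 list gene are not reported here.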

Additional observations from a re-analysis of the deposited data

How the results depend on the processing

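Of 1700 values of the 9 genes under alternative settings, 1638 kept their side of the threshold, 34 lost a call and 28 gained one. Values changed sign in 61 cases, in all of which the gene was called in neither fit, and 0 of the 32 calls reversed. The single calls lost or gained stand beside each gene in the report, and the counts that moved by over 1.5 times were these. With DESeq2, 1 gene was higher at baseline and 2 were lower at d14 between strains, and 1 was higher at d14 than at d2 in IKKβΔTub. With a pseudocount of 0.05, 2 were lower at d14 between strains. With only the compared libraries in the fit, 1 gene was lower at d14 than at d2 in control and 0 in IKKβΔTub, and without the filter 1 was lower in IKKβΔTub. Without both doubtful control d2 libraries, 5 genes were higher at d2 than at baseline in control and 0 at d14 than at d2. Leaving out each library in turn gave 0 to 2 genes higher and 0 to 1 lower at baseline between strains, 0 to 3 lower at d14 between strains, and 0 to 2 higher and 1 to 2 lower from d2 to d14 in IKKβΔTub. The replicate block left each count as it was (8 higher at d2 in control, 0 lower at d14 between strains). Deviations of same-numbered libraries had correlations of -0.35 to 0.36, without a common direction. The labels repeat the same mouse numbers at each time, and these few correlations cannot exclude a pairing. A filter of 0.05 removed Tnf. Tnf is limited by depth, at 1 to 75 reads a library, and 3 libraries a group limit the other genes.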
